A study of Mus musculus with 60 samples.

Results

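Expression of 10 inflammatory chemokine genes, Ccl2, Ccl5, Ccl6, Ccl7, Ccl8, Ccl9, Cxcl1, Cxcl9, Cxcl10 and Cxcl12, was followed through 6 tissues of diet-induced obese (DIO) mice given sulforaphane (SFN) or vehicle. The genes were taken by symbol and are 10 of the 54532 genes in the expression table. The animals were wild-type male C57BL/6 mice placed on a high-fat diet at 12 weeks of age for 16 to 20 weeks, and at about 28 weeks they received daily intraperitoneal SFN (5 mg/kg) or vehicle for 1 week. SFN is an isothiocyanate derived from cruciferous vegetables and is best known as an activator of the transcription factor NRF2. Vehicle mice 1 to 5 and SFN mice 6 to 10 each gave hypothalamus, inguinal white fat (iWAT), epididymal white fat (eWAT), brown fat (BAT), liver and skeletal muscle, so that each tissue had 5 libraries per treatment and 60 libraries were sequenced in all. No lean, chow-fed or SFN-treated lean group is part of these libraries, so every level below is that of an obese mouse.

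Chemokines are small secreted proteins that draw leukocytes along a gradient through G protein-coupled receptors. In obese fat they are made by adipocytes, stromal cells, endothelium and above all by the macrophages that gather around dying adipocytes, and the monocytes they attract become further macrophages. Their genes are switched on largely by NF-kB downstream of TNF, interleukin-1 and Toll-like receptors, and a subset by interferons through STAT and IRF factors. Ccl2 and Ccl7 attract monocytes through Ccr2. Ccl6 and Ccl9 are rodent CC chemokines of myeloid cells that act on Ccr1, and mouse Ccl8 is a macrophage product that acts on Ccr8. Ccl5 comes chiefly from activated T and NK cells, Cxcl9 and Cxcl10 are the interferon-induced ligands of Cxcr3, Cxcl1 attracts neutrophils through Cxcr2, and Cxcl12 is the constitutive stromal ligand of Cxcr4.

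The CC genes lie in clusters on mouse chromosome 11 (GRCm38). Ccl2 (chr11:82035571-82037453), Ccl7 (chr11:82045712-82047525) and Ccl8 (chr11:82115185-82116799) lie on the plus strand, with Ccl2 and Ccl7 closest to each other. Ccl5 (chr11:83525778-83530518), Ccl9 (chr11:83572919-83578636) and Ccl6 (chr11:83587882-83593087) follow on the minus strand. Cxcl9 (chr5:92321347-92328079) and Cxcl10 (chr5:92346638-92348889) are adjacent on the minus strand of chromosome 5, where Cxcl1 (chr5:90891241-90893115) also lies, and Cxcl12 is alone on chromosome 6 (chr6:117168535-117181367). Cxcl10 shares its locus with Art3 on the opposite strand, and whether strand was used in the counting is not given in the sources used here. Art3 was at 61.4 to 119.8 FPKM in skeletal muscle and 38.1 to 65.7 in iWAT. It was at 9.73 to 19.8 FPKM in BAT and 3.35 to 16.0 in eWAT, and in liver it reached only 0.770. In skeletal muscle, where Art3 was highest, Cxcl10 was at 0 to 0.285 FPKM, on 0 to 8 reads per library. The part of Art3 reads in the Cxcl10 values was not tested. Ccl2 and Ccl6 each overlap an opposite-strand gene too, with means of 0.0348 and 0.124 FPKM over all libraries.

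Promoter windows from RefSeq (GRCm38.p6, 250 bases before to 50 after the gene start) were matched for 7 of the 10 genes, the exceptions being Ccl2, Ccl5 and Ccl7. The windows of 5 are shown because the results below turn on 2 groups of genes, the macrophage chemokines Ccl8, Ccl6 and Ccl9, whose eWAT levels are set against macrophage markers, and the interferon-induced pair Cxcl9 and Cxcl10. Each is written 5′ to 3′ on the strand of its gene, and capitals mark matches to an NF-kB motif or to an interferon regulatory factor motif (GAAA, any 2 bases, GAAA), searched on both strands.
Ccl8 (chr11:82114935-82115234, plus strand): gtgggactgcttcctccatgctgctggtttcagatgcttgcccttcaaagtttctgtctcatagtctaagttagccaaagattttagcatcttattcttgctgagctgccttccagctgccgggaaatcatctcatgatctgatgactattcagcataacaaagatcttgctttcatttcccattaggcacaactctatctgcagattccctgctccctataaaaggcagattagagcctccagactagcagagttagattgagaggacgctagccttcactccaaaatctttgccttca
Ccl6 (chr11:83593038-83593337, minus strand): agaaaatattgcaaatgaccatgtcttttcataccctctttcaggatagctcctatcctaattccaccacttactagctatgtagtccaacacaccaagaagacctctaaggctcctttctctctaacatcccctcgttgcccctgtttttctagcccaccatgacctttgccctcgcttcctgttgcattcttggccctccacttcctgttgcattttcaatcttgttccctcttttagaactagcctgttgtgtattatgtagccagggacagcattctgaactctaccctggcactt
Ccl9 (chr11:83578587-83578886, minus strand): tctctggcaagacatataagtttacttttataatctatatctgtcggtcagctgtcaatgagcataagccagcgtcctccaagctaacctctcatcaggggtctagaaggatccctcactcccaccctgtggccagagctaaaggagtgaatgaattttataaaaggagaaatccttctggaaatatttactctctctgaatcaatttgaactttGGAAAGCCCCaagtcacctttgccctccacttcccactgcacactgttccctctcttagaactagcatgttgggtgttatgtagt
Cxcl9 (chr5:92328030-92328329, minus strand): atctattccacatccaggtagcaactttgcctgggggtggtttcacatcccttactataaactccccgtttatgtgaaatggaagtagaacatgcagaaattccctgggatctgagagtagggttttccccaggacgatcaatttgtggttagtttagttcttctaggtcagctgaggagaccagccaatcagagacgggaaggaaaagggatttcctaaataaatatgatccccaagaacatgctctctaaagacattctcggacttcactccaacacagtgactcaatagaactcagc
Cxcl10 (chr5:92348840-92349139, minus strand): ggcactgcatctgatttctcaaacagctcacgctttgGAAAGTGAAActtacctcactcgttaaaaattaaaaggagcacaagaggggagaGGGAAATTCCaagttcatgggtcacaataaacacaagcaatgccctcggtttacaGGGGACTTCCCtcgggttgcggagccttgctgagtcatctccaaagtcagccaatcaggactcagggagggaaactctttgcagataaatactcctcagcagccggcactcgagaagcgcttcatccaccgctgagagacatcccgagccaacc
The Cxcl10 window held 2 separate stretches of NF-kB matches, at -159 to -150 and -104 to -94 from the start, and the interferon motif at -213 to -204. The Ccl9 window held a single NF-kB match on the opposite strand at -35 to -26. That of Cxcl1, not shown, held overlapping matches on both strands at -71 to -61. NF-kB matches were present in 3 of the 7 windows and in 8.46% of 32851 promoter windows of the same length, and the interferon motif in 1 of 7 and in 3.44%. The STAT motif TTCNNNGAA, searched on both strands, was in none of the 7 and in 8.30% of all windows. Windows of Ccl6 and Ccl9 shared a run of 13 bases, gccctccacttcc, the longest run common to any pair of the 7. These are letter matches and say nothing of binding.

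Libraries held 14802638 to 25258292 recovered reads (median 16949841), and depth limits the least abundant values, such as those of Ccl7 and Ccl8 in liver. Expression is given as FPKM, fragments scaled to the length of the gene and by 1 factor per library, so levels can be set side by side between genes. That factor was not proportional to recovered reads, so levels compared between tissues depend on it. The vehicle medians of Cxcl1 in liver and eWAT were 6.95 and 1.48 as deposited, and 5.01 and 1.93 when scaled to recovered reads. In the hypothalamus 1 of the 10 genes reached the mean of 0.5 FPKM required for testing, in skeletal muscle 4, in BAT and liver 9, and in iWAT and eWAT all 10. Each tissue expressed its own markers, but some fat libraries also held muscle fibre transcripts. Summed muscle fibre markers ranged from 1.83 to 3604 FPKM in BAT of vehicle mice and from 1.71 to 3189 in BAT of SFN mice. In iWAT of vehicle mouse 4 they reached 1516 FPKM. The 4 iWAT libraries of vehicle mouse 2 and SFN mice 6, 7 and 8 stood apart, with summed T and NK cell markers of 90.6 to 158 FPKM against 8.45 to 12.2 in the other 6, and B cell and lymph node markers of 597 to 999 FPKM against 199 to 574, so iWAT values are also given without them.

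In vehicle mice the CC chemokines were highest in eWAT. Median levels there were 375 FPKM for Ccl6 (range 192 to 398), 190.0 for Ccl9 (88.7 to 198), 42.1 for Ccl8 (31.2 to 46.8), 33.5 for Ccl2 (24.6 to 43.6), 23.0 for Ccl7 (17.7 to 40.2) and 5.58 for Ccl5 (4.20 to 6.14). For Ccl2, Ccl6, Ccl8 and Ccl9 the range in eWAT lay above that of the next tissue, iWAT, where the medians were 14.3, 62.2, 23.4 and 27.7 FPKM. The eWAT range of Ccl7 overlapped that of iWAT (12.0 to 20.4), and that of Ccl5 overlapped liver (1.54 to 13.9) and iWAT (2.68 to 63.9).

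The CXC genes were ordered differently. Cxcl12 was highest in liver, at a median of 61.8 FPKM (54.5 to 68.9), and was the only one of the 10 with a median above 1 FPKM in all 6 tissues, the hypothalamus being lowest at 4.58 (4.11 to 6.44). Its levels in skeletal muscle, iWAT, BAT and eWAT, with medians of 21.0, 18.8, 17.2 and 16.5 FPKM, overlapped in range from each to the next. Cxcl1 was also highest in liver, at 6.95 FPKM (3.93 to 7.02) against 1.48 in eWAT (1.18 to 2.13). Cxcl9 was highest in iWAT, at 12.2 FPKM (11.4 to 15.9), above BAT at 6.39 (4.87 to 7.92), and its range in liver (2.90 to 15.6) was the widest. Cxcl10 was low everywhere, with medians of 2.40 FPKM in liver and 2.12 in iWAT whose ranges overlapped. Counted by highest median, 6 genes led in eWAT, 3 in liver and 1 in iWAT, and with values divided by recovered reads, a scaling chosen after seeing the data, Cxcl10 moved to iWAT and the counts became 6, 2 and 2. The order of Cxcl12 below liver changed too, to iWAT, eWAT, BAT and skeletal muscle, with scaled medians of 23.2, 21.5, 15.05 and 12.9.

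**Figure D1:**
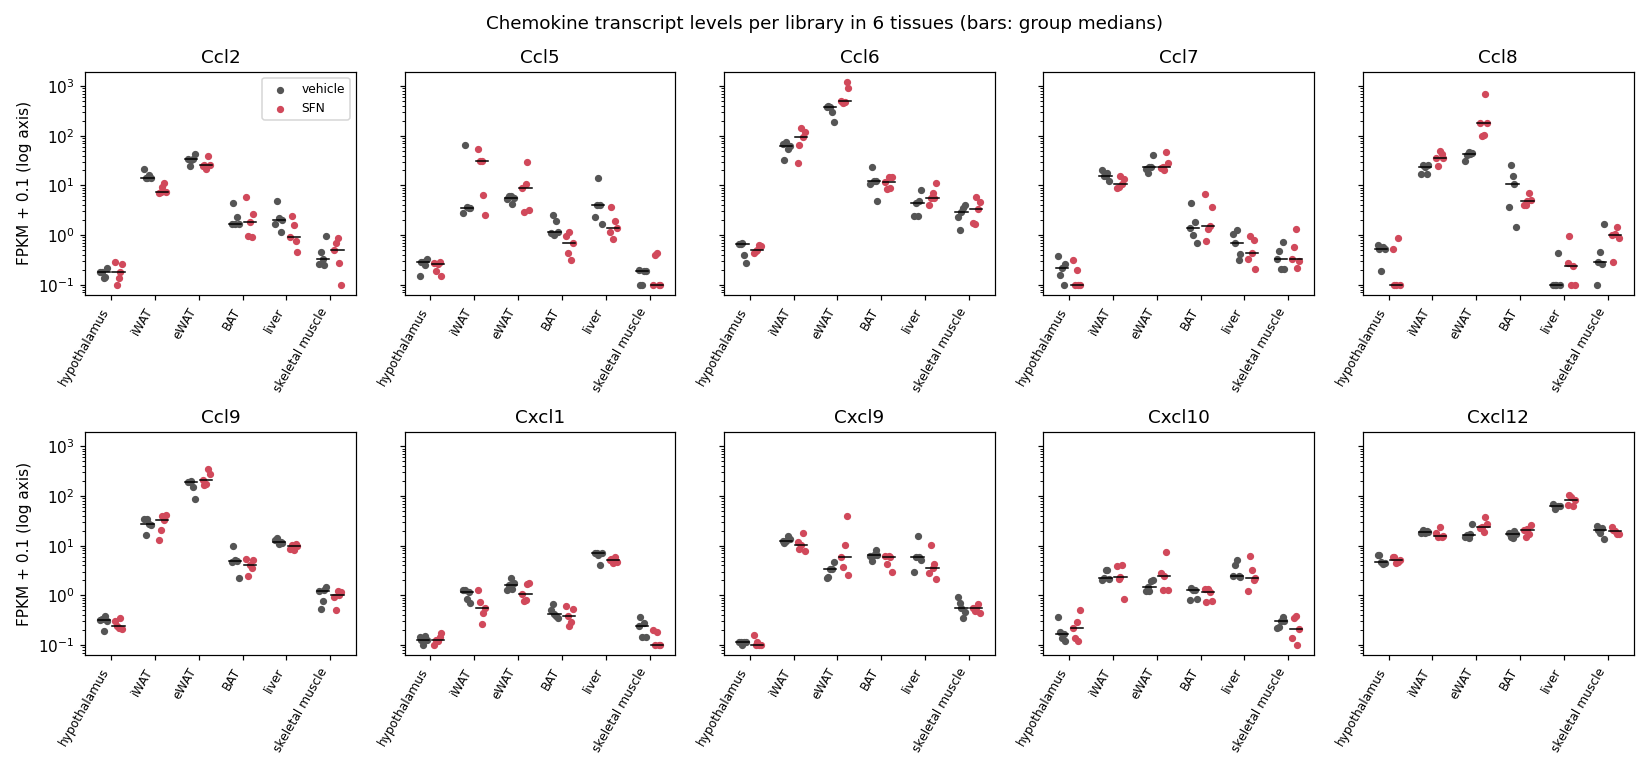
FPKM + 0.1 on a log axis for each of the 10 chemokine genes in 6 tissues, 1 point per library (grey vehicle, red SFN) with a bar at each group's median. In vehicle mice the CC genes have their highest medians in eWAT. In SFN mice the Ccl5 median is higher in iWAT (30.8 FPKM) than in eWAT (8.64 FPKM). The iWAT libraries of SFN mice 6, 7 and 8 held lymph node transcripts, and those of SFN mice 9 and 10 were at 6.22 and 2.41 FPKM. Ccl8 in eWAT of the 5 SFN mice (98.1 to 701 FPKM) lies above the 5 vehicle mice (31.2 to 46.8 FPKM), and Cxcl12 is highest in liver.

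The fat depots were compared directly within vehicle mice. Of the 10 genes, 6 were higher in eWAT than in iWAT and 2 lower, where 56.1% of all 14150 genes tested passed the same limma threshold (adjusted p under 0.05). The largest differences were those of Ccl9 (log2 difference 2.55, SE 0.26) and Ccl6 (2.52, SE 0.26), followed by Ccl2 (1.05, SE 0.16), Ccl8 (0.93, SE 0.16), Cxcl1 (0.66, SE 0.22) and Ccl7 (0.61, SE 0.21). Cxcl9 went the other way (-2.08, SE 0.20), as did Cxcl10 (-0.69, SE 0.20), and the part of Art3 reads in the Cxcl10 values was not tested. Ccl5 (-0.15, SE 0.76) and Cxcl12 (-0.10, SE 0.16) did not pass. Both depots came from the same mice, and with the mouse as replicate block 6 of the 10 passed, Ccl7 (adjusted p = 0.0659) and Cxcl1 (adjusted p = 0.0599) being lost. Leaving out single mice lost Ccl7 (mouse 3, 4 or 5), Cxcl1 (mouse 3 or 5) and Cxcl10 (mouse 3), while Cxcl12 passed at -0.26 without mouse 5 and Ccl5 at 0.67 without mouse 2. Macrophage markers moved with the CC genes other than Ccl5, 14 of 15 being higher in eWAT, with a summed level of 2883 to 6049 FPKM there against 707 to 1044 in iWAT. Of 8 stromal fibroblast markers 7 were higher in eWAT and 1 lower, and 7 of 8 endothelial and 8 of 8 adipocyte markers were lower. The part of these cell types in the result was not tested. With only the iWAT library of vehicle mouse 2 left out, which held lymph node transcripts, a check chosen after seeing the data, Ccl5 was higher in eWAT by 0.70 and Ccl7 no longer passed (adjusted p = 0.0506). In bulk tissue, fewer cells of a type and less RNA per cell cannot be told apart, here or in any comparison that follows.

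Under SFN, Ccl8 in eWAT showed the largest log2 fold change of any of the 10 genes in any tissue. It stood at 31.2, 41.8, 46.8, 42.1 and 44.9 FPKM in vehicle mice 1 to 5, and at 183, 98.1, 106, 701 and 179.9 FPKM in SFN mice 6 to 10. All SFN values lay above all vehicle values, and SFN mouse 9 was far above the rest. The means were 41.4 ± 6.05 and 254 ± 253 FPKM (SD, n = 5 each), a log2 fold change of 2.20 (SE 0.46) with an exact permutation p of 0.00794, the smallest that 5 against 5 allows. Across the 13908 genes tested the limma adjusted p was 0.0861, which missed the threshold. Without mouse 9 the SFN mean was 142 ± 46.2 FPKM (n = 4), and the log2 fold change of 1.73 passed (adjusted p = 0.0452). DESeq2 on the recovered reads also called it (adjusted p = 1.38e-05), edgeR did not (adjusted p = 0.0699), and a single fit to all 60 libraries did (adjusted p = 0.0431).

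Ccl6 was the other chemokine whose eWAT groups did not overlap. It was at 379.5, 398, 375, 303 and 192 FPKM in vehicle mice and at 510.4, 449.9, 469.5, 1208 and 910.5 FPKM in SFN mice. SFN mice 9 and 10 were highest, and vehicle mouse 5 was lowest. The log2 fold change was 1.03 (SE 0.32, exact permutation p = 0.00794), and it missed the limma threshold (adjusted p = 0.189) and edgeR's (adjusted p = 0.133) but not DESeq2's (adjusted p = 0.0124). Without mouse 9 the SFN mean of 709.6 FPKM became 585 ± 218 (n = 4), against 329 ± 85.2 in vehicle mice. Ccl9, its neighbour on the chromosome and a ligand of the same receptor, was at 195, 190.0, 198, 153 and 88.7 FPKM in vehicle mice and 206, 163, 178, 354 and 276 FPKM in SFN mice. Again SFN mice 9 and 10 were highest and vehicle mouse 5 lowest, but the groups overlapped (log2 fold change 0.51, SE 0.27, limma adjusted p = 0.451).

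The level of macrophage transcripts varied over the same libraries. Summed over 15 macrophage markers, none of them at 0, it was 5717, 6049, 5752, 4333 and 2883 FPKM in vehicle mice and 6575, 5854, 6036, 9449 and 8433 FPKM in SFN mice. It was lowest in vehicle mouse 5 and highest in SFN mice 9 and 10, like Ccl6 and Ccl9. Of the 15 markers 14 had a fold change above 0 and 2 rose past the threshold, Fcgr1, the high-affinity IgG receptor (log2 fold change 1.59), and Mrc1, the mannose receptor (0.89). The part of macrophage abundance in these chemokine values was not tested. SFN mouse 9 also held the highest monocyte and neutrophil markers (152 FPKM, against 14.8 to 41.0 in the other 9) and the highest sum of markers typical of resident macrophages such as Timd4, Marco, Cd5l and Vsig4 (517 FPKM, against 7.00 to 170.1), with the Kupffer cell gene Clec4f at 0 in all 10.

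**Figure D2:**
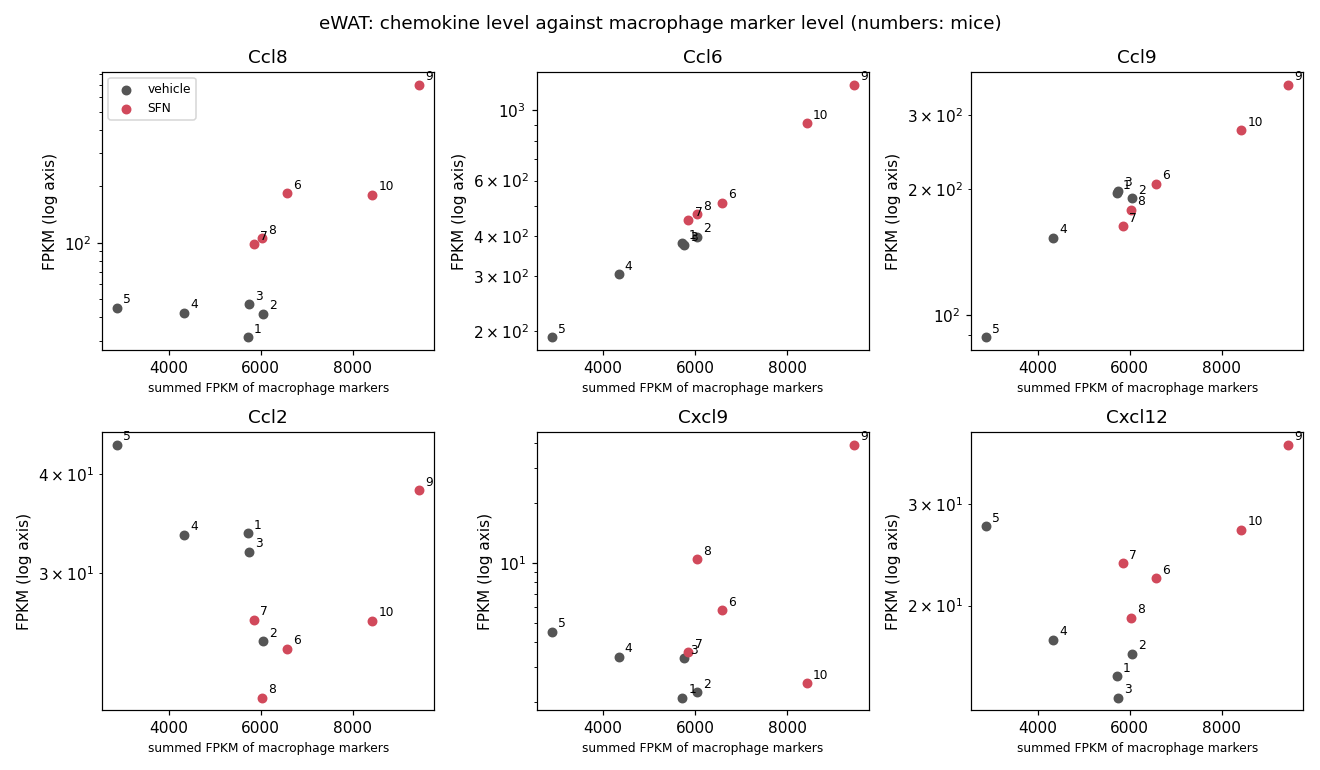
FPKM (log axis) of 6 chemokines in each eWAT library against the summed FPKM of 15 macrophage markers, with grey points for vehicle and red for SFN and mouse numbers beside them. Ccl6 and Ccl9 follow the marker sum from vehicle mouse 5 (2883) to SFN mouse 9 (9449), and Ccl8 is between 31.2 and 46.8 FPKM in the 5 vehicle mice.

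The monocyte attractants behaved otherwise in eWAT. Ccl2 was at 33.7, 24.6, 31.9, 33.5 and 43.6 FPKM in vehicle mice and at 24.1, 26.2, 20.9, 38.2 and 26.1 FPKM in SFN mice. The groups overlapped, with a log2 fold change of -0.31 (SE 0.18, adjusted p = 0.474), and the highest value belonged to vehicle mouse 5, which had the fewest macrophage transcripts. That library also held the highest sums of adipocyte markers (3976 FPKM, against 635 to 2213 in the others) and endothelial markers (138 FPKM, against 42.7 to 86.1). Both sums were lowest in SFN mouse 9, and the part of these cells was not tested. Ccl7, at 25.2 ± 8.71 and 28.5 ± 11.1 FPKM (SD, n = 5 each), did not pass either (0.17, SE 0.26).

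The T cell attracting chemokines in eWAT were dominated by SFN mouse 9. Cxcl9 was at 2.10, 2.23, 3.31, 3.36 and 4.50 FPKM in vehicle mice and at 5.78, 3.54, 10.4, 39.3 and 2.47 FPKM in SFN mice. Mouse 9 was highest and mice 7 and 10 lay within the vehicle range. The log2 fold change of 1.27 (SE 0.63) did not pass (adjusted p = 0.419). Cxcl10 followed the same mice, at 1.14, 1.38, 1.14, 1.89 and 1.98 FPKM in vehicle and 2.68, 1.16, 2.37, 7.52 and 1.20 FPKM in SFN mice (0.64, SE 0.44, adjusted p = 0.558). Ccl5 was at 5.27, 5.94, 6.14, 4.20 and 5.58 FPKM and at 8.64, 2.77, 10.8, 29.8 and 3.05 FPKM (0.48, SE 0.56). In all 3 genes SFN mice 6, 8 and 9 were above every vehicle mouse and mice 7 and 10 were within or below the vehicle range. Without mouse 9 the SFN means went from 12.3 to 5.55 FPKM for Cxcl9, from 2.99 to 1.85 for Cxcl10 and from 11.0 to 6.32 for Ccl5. Summed T and NK cell markers were 19.2 to 36.6 FPKM in vehicle mice and 19.4 to 58.0 in SFN mice, the highest being mouse 9, and their part was not tested.

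The remaining ligands in eWAT were Cxcl12 and Cxcl1. Cxcl12 was at 15.1, 16.5, 13.9, 17.5 and 27.5 FPKM in vehicle mice and at 22.3, 23.7, 19.1, 38.0 and 27.1 FPKM in SFN mice. Only vehicle mouse 5 reached the SFN range, and the log2 fold change of 0.53 (SE 0.21) did not pass (adjusted p = 0.317). Cxcl1, near 1 FPKM, was 1.54 ± 0.376 in vehicle and 1.12 ± 0.473 FPKM in SFN mice (-0.49, SE 0.26). In count, 0 of the 10 genes passed limma in eWAT, where 0.209% of all genes passed, and 3 had an unadjusted p under 0.05, beside 13.4%. EdgeR called 0 of the 10 and 0.235% of all genes, and DESeq2 called 2 (Ccl8 and Ccl6) and 4.43%. The groups did not overlap for 2 genes, both higher under SFN, against 4.81% of all genes. The median log2 fold change of the 10 was 0.52, with 8 above 0, beside 0.003 over all genes.

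Genes of related pathways in eWAT mostly had fold changes above 0 that did not pass. Of the type I interferon-stimulated genes 13 of 13 had a fold change above 0, at a median of 0.79, and 1 passed, Ifit1, an RNA-binding antiviral protein that rose from 2.17 ± 0.360 to 4.83 ± 1.27 FPKM (SD, n = 5 each, log2 fold change 1.09, adjusted p = 0.0453). Of the interferon gamma axis 14 of 14 tested were above 0, at a median of 0.67, and none passed, the interferon-inducible GTPases Iigp1 (1.88, SE 0.49, adjusted p = 0.136) and Igtp (1.42, SE 0.37, adjusted p = 0.134) being nearest. Among 21 tested genes of the NF-kB pathway and its targets 19 were above 0, at a median of 0.15, and none passed. Of these the adhesion molecule Vcam1 had the smallest p (0.69, SE 0.14, adjusted p = 0.0861). None of 10 chemokine receptors passed, 7 being above 0. None of 8 other CC chemokines passed, 6 being above 0, nor any of 9 other CXC, C and CX3C chemokines, though all 9 were above 0. Ccl12, a Ccr2 ligand beside Ccl8 in the cluster, was at 1.58 ± 0.651 and 4.16 ± 2.24 FPKM (1.30, SE 0.34, adjusted p = 0.134). None of the 3 atypical receptors tested passed, and all 3 were below 0.

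In iWAT the gene that stood out was Ccl2, in the opposite direction. It was at 21.7, 13.9, 14.3, 16.3 and 13.9 FPKM in vehicle mice 1 to 5 and at 7.03, 7.24, 9.11, 11.1 and 7.27 FPKM in SFN mice 6 to 10. Every SFN value lay below every vehicle value. The means were 16.0 ± 3.30 and 8.34 ± 1.74 FPKM (SD, n = 5 each), a log2 fold change of -0.94 (SE 0.16, exact permutation p = 0.00794). Adjusted over the 14142 genes tested it missed limma's threshold (adjusted p = 0.267) and edgeR's (adjusted p = 0.23) and passed DESeq2's (adjusted p = 0.000187). Among the libraries without lymph node transcripts, 4 vehicle mice had 13.9 to 21.7 FPKM of Ccl2 and the 2 SFN mice 7.27 and 11.1 FPKM. Ccl7, the adjacent gene with the same receptor, was at 20.4, 15.1, 15.5, 17.4 and 12.0 FPKM and at 8.91, 9.02, 15.7, 10.7 and 13.3 FPKM. Its groups overlapped, and its log2 fold change of -0.49 (SE 0.18) did not pass (adjusted p = 0.508). Stromal fibroblast markers, 8 of 8 with a fold change below 0 and none past the threshold, summed to 644 to 1326 FPKM in vehicle and 593 to 1034 in SFN mice. Endothelial markers, also 8 of 8 below 0 with none past the threshold, summed to 148 to 195 and 113 to 169.6 FPKM, and the part of these cells was not tested.

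Ccl8 in iWAT was at 17.1, 25.2, 23.4, 17.3 and 26.1 FPKM in vehicle mice and at 36.1, 24.1, 50.3, 43.5 and 35.6 FPKM in SFN mice. SFN mouse 7 alone fell within the vehicle range. The log2 fold change was 0.77 (SE 0.20, exact permutation p = 0.0238), which missed limma's adjusted threshold (adjusted p = 0.372) and edgeR's (adjusted p = 0.315) and passed DESeq2's (adjusted p = 0.0311). Macrophage markers in iWAT summed to 707 to 1044 FPKM in vehicle and 608 to 1194 FPKM in SFN mice, and their part was not tested.

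Ccl5 in iWAT was high in 4 libraries, from mice of both treatments. It was at 2.68, 63.9, 3.58, 3.43 and 3.44 FPKM in vehicle mice and at 55.1, 30.8, 31.6, 6.22 and 2.41 FPKM in SFN mice. The 4 libraries with 30.8 FPKM or more were those of vehicle mouse 2 and SFN mice 6, 7 and 8, the same 4 whose T and NK cell markers stood apart. In the other libraries Ccl5 was 2.68 to 3.58 FPKM in 4 vehicle mice and 2.41 and 6.22 FPKM in 2 SFN mice. The log2 fold change over all 10 was 1.34 (SE 1.05, adjusted p = 0.703).

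**Figure D3:**
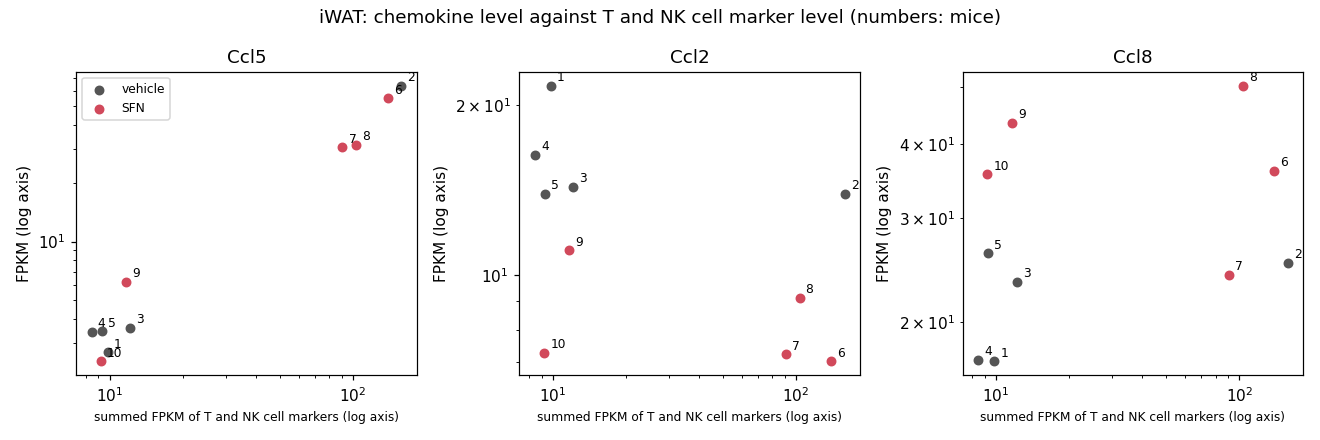
FPKM (log axis) of Ccl5, Ccl2 and Ccl8 in each iWAT library against the summed FPKM of 14 T and NK cell markers (log axis), with grey points for vehicle, red for SFN and mouse numbers beside them. Ccl5 is at 30.8 FPKM or above in the 4 libraries whose marker sum is 90.6 or above, while Ccl2 is lower in SFN than in vehicle mice on both sides.

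The other iWAT values did not pass. Ccl6 was 57.7 ± 16.0 and 91.0 ± 46.3 FPKM, Ccl9 27.9 ± 7.41 and 29.4 ± 12.4, Cxcl9 13.0 ± 1.79 and 11.3 ± 4.18, Cxcl10 2.47 ± 0.600 and 2.55 ± 1.36, Cxcl12 18.8 ± 1.02 and 17.4 ± 3.66, and Cxcl1 0.947 ± 0.265 and 0.554 ± 0.382 FPKM (vehicle and SFN, SD, n = 5 each). Lowest of the Ccl6 values were those of vehicle mouse 2 (32.2 FPKM) and SFN mouse 6 (28.4 FPKM), the libraries with the most T and NK cell transcripts. Of the 10 genes 0 passed limma in iWAT, where 0.00707% of all genes passed, and 3 had an unadjusted p under 0.05, beside 8.3%. EdgeR called 0 of the 10 and 0.0% of all genes, and DESeq2 called 2 (Ccl2 and Ccl8) and 1.23%. The groups did not overlap for 1 gene, Ccl2, against 1.56% of all genes. The 10 had a median log2 fold change of -0.13 beside -0.02 over all genes. None of the lists of other chemokines, receptors, NF-kB or interferon genes held a gene that passed in iWAT, the smallest p being that of Ccl11, the eosinophil attractant (38.4 ± 5.01 and 24.1 ± 6.62 FPKM, -0.70, SE 0.18, adjusted p = 0.372).

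Without the 4 libraries holding lymph node transcripts, a check chosen after seeing the data, 4 vehicle and 2 SFN iWAT libraries were left. Limma then called 0 of the 10 genes, beside 0.0283% of all genes, and the groups did not overlap for 5, beside 24.8% of all genes. Higher in both SFN mice were Ccl6, at 93.9 and 121 FPKM against 53.8 to 73.3 in vehicle mice (log2 fold change 0.74, SE 0.15, adjusted p = 0.214), and Ccl8, at 35.6 and 43.5 against 17.1 to 26.1 (0.93, SE 0.21, adjusted p = 0.22). Lower in both were Ccl2 (-0.85, adjusted p = 0.268), Cxcl1, at 0.346 and 0.465 FPKM against 0.588 to 1.17 (-0.94, adjusted p = 0.288), and Cxcl12, at 14.6 and 15.8 against 17.6 to 19.3 (-0.28, adjusted p = 0.22). Ccl5, Ccl7, Ccl9, Cxcl9 and Cxcl10 overlapped.

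Liver was the tissue with the most genes called, 13.1% of 13388, and 1 of the 9 chemokines tested was among them. Ccl9 was at 13.1, 13.99, 10.9, 12.0 and 11.2 FPKM in vehicle mice and at 8.54, 10.2, 7.92, 10.5 and 9.55 FPKM in SFN mice. No SFN value reached the lowest vehicle value, though the gap between vehicle mouse 3 and SFN mouse 9 was small. Ccl9 fell from 12.2 ± 1.32 to 9.34 ± 1.09 FPKM (SD, n = 5 each), a log2 fold change of -0.39 (SE 0.10, limma adjusted p = 0.0295, exact permutation p = 0.00794), and edgeR (adjusted p = 0.0246) and DESeq2 (adjusted p = 0.00657) also called it. The log2 fold change stayed at -0.43 to -0.33 whichever mouse was left out, but the call did not always hold. Leaving out any 1 of 6 mice took the limma adjusted p over the threshold, to 0.0639 (vehicle mouse 1), 0.0617 (vehicle mouse 2), 0.0563 (vehicle mouse 4), 0.052 (SFN mouse 6), 0.0616 (SFN mouse 8) or 0.0559 (SFN mouse 10). The call also failed with no filter on low values (adjusted p = 0.0536) and in the fit to all 60 libraries (adjusted p = 0.41). Macrophage markers in liver summed to 147 to 269 FPKM in vehicle and 159 to 253 in SFN mice, with none of 14 tested past the threshold, and Kupffer cell markers to 60.2 to 129.9 and 67.95 to 152 FPKM. Stromal fibroblast markers, which are produced in liver mainly by stellate cells, fell for 8 of 8, from 76.9 to 106 FPKM in sum to 41.7 to 66.8, and their part in the Ccl9 value was not tested.

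Cxcl12, the most abundant of the 10 in liver, had a higher SFN mean that did not pass limma. It was at 68.9, 54.5, 59.7, 64.2 and 61.8 FPKM in vehicle mice and at 65.2, 103.5, 94.3, 62.4 and 84.9 FPKM in SFN mice. SFN mice 7, 8 and 10 were above all vehicle mice and mice 6 and 9 were within their range. The log2 fold change of 0.38 (SE 0.14) missed limma's threshold (adjusted p = 0.0944) and edgeR's (adjusted p = 0.0546) and passed DESeq2's (adjusted p = 0.023), and without SFN mouse 9 limma called it (0.48, adjusted p = 0.0347).

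Several of the leukocyte attractants in liver had lower means under SFN without passing limma. Ccl5 was at 2.26, 4.02, 13.9, 3.97 and 1.54 FPKM in vehicle mice and at 1.05, 3.53, 0.715, 1.86 and 1.30 FPKM in SFN mice. Vehicle mouse 3 alone was high, and that mouse also held the most T and NK cell transcripts in liver (9.96 FPKM, against 1.94 to 6.46 in the other 9) and the highest Cxcl9 (15.6 FPKM). The log2 fold change of Ccl5 was -1.32 (SE 0.56, adjusted p = 0.139, DESeq2 adjusted p = 0.0242), and without mouse 3 the vehicle mean of 5.13 FPKM became 2.95 ± 1.24 (n = 4), against 1.69 ± 1.11. Ccl2, on 5 to 77 reads per library, was at 1.61, 4.66, 2.14, 1.04 and 1.95 FPKM and at 0.802, 2.36, 1.51, 0.664 and 0.366 FPKM (-1.01, SE 0.47, adjusted p = 0.177). Mouse 2 was the highest vehicle mouse and mouse 7 the highest SFN mouse, within the vehicle range. Cxcl1 was at 7.02, 6.95, 6.42, 3.93 and 6.98 FPKM and at 5.11, 5.41, 4.29, 5.83 and 4.67 FPKM (-0.28, SE 0.16, adjusted p = 0.27). Vehicle mouse 4 alone lay below the SFN range, and without it Cxcl1 passed (-0.43, adjusted p = 0.0276). Ccl6 (4.29 ± 2.29 and 6.56 ± 2.72 FPKM), Cxcl9 (7.06 ± 4.93 and 4.48 ± 3.23), Cxcl10 (3.19 ± 1.27 and 2.87 ± 1.91) and Ccl7 (0.643 ± 0.403 and 0.446 ± 0.320) did not pass. Ccl8 had 0 to 5 reads per liver library and was not tested.

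Counted together, 1 of the 9 genes tested in liver passed limma, 1 edgeR (15.4% of all genes) and 3 DESeq2 (Ccl9, Ccl5 and Cxcl12, beside 19.6%), and 3 had an unadjusted p under 0.05, beside 30.3%. The groups did not overlap for 1, against 12.1% of all genes, and the limma and overlap shares were near those of all genes. The median log2 fold change was -0.39 beside -0.02. Of the other chemokines tested in liver, Ccl4, a CC chemokine of activated leukocytes, fell (1.25 ± 0.343 to 0.248 ± 0.329 FPKM, -2.42, adjusted p = 0.0237), and Cxcl14 rose (2.38 ± 0.519 to 13.3 ± 6.62 FPKM, 2.33, adjusted p = 0.00258), as did the platelet chemokine Ppbp (1.44, adjusted p = 0.0371) at below 1 FPKM. Of 5 receptors tested Ccr2 fell (0.945 ± 0.145 to 0.553 ± 0.119 FPKM, -0.69, adjusted p = 0.0349). Of 11 genes of the interferon gamma axis Gbp3, a guanylate-binding protein, fell (-0.72, adjusted p = 0.0138). Of 13 type I interferon genes Stat2 rose (0.41, adjusted p = 0.0219), and none of 19 NF-kB genes passed. These calls in the other lists stand beside 13.1% of all genes called by limma in liver.

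In BAT none of 9 genes tested passed, where 0.0075% of all genes did. Ccl5 had the smallest p, at 1.01, 2.44, 0.914, 1.84 and 1.07 FPKM in vehicle mice and 0.838, 0.342, 1.05, 0.218 and 0.600 FPKM in SFN mice, on 3 to 37 reads per library. SFN mouse 8 fell within the vehicle range and the other SFN mice below it (-1.19, SE 0.39, limma adjusted p = 0.193, exact permutation p = 0.0238). Ccl8, whose fold change was above 0 in both white depots, was at 3.52, 25.1, 15.3, 10.4 and 1.34 FPKM in vehicle mice and 3.94, 3.98, 4.73, 6.83 and 5.07 FPKM in SFN mice. The vehicle mice spanned the whole SFN range (-0.58, SE 0.66), and vehicle mouse 2, the highest, also had the highest macrophage sum in BAT (619.6 FPKM, against 163 to 381 in the other 9). The other genes overlapped too, at 2.24 ± 1.18 and 2.32 ± 1.99 FPKM for Ccl2, 12.7 ± 6.82 and 11.5 ± 2.90 for Ccl6, 1.77 ± 1.46 and 2.70 ± 2.45 for Ccl7, and 5.30 ± 2.79 and 3.998 ± 1.20 for Ccl9 (vehicle and SFN, SD, n = 5 each). Cxcl9 was 6.33 ± 1.09 and 5.04 ± 1.49 FPKM, Cxcl10 1.03 ± 0.277 and 0.974 ± 0.297, and Cxcl12 16.8 ± 2.24 and 19.8 ± 4.10, while Cxcl1, at 0.143 to 0.574 FPKM, was below the filter. The unadjusted p was under 0.05 for 1 of the 9, beside 15.4% of all genes, edgeR and DESeq2 called 0, beside 0.437% and 4.4%, and no gene had groups that did not overlap, against 3.85% of all genes.

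The hypothalamus and skeletal muscle expressed little beyond Cxcl12. In the hypothalamus Cxcl12 was 5.17 ± 1.10 FPKM in vehicle and 5.17 ± 0.730 in SFN mice (SD, n = 5 each, log2 fold change 0.01, SE 0.14), and the other 9 genes were below the filter, at no more than 0.777 FPKM in any library. No gene of the 1 tested was called by limma, edgeR or DESeq2 or had an unadjusted p under 0.05, beside 0.0%, 0.0%, 0.0724% and 6.51% of all genes, and 0.979% had groups that did not overlap. In skeletal muscle Cxcl12 was 20.1 ± 4.34 and 19.3 ± 2.65 FPKM (-0.03, SE 0.16). Ccl6 (2.74 ± 1.09 and 3.34 ± 1.86 FPKM), Ccl9 (0.957 ± 0.392 and 0.875 ± 0.285) and Ccl8 (0.457 ± 0.638 and 0.826 ± 0.413, on 0 to 9 reads per library) did not pass, and the other 6 genes were below the filter, at no more than 1.203 FPKM in any library. Of these 4, limma, edgeR and DESeq2 called 0, 0 had an unadjusted p under 0.05 and 0 had groups that did not overlap, beside 0.0%, 0.0239% and 1.57% of all genes called, 13.6% at the unadjusted p and 2.71% not overlapping.

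**Figure D4:**
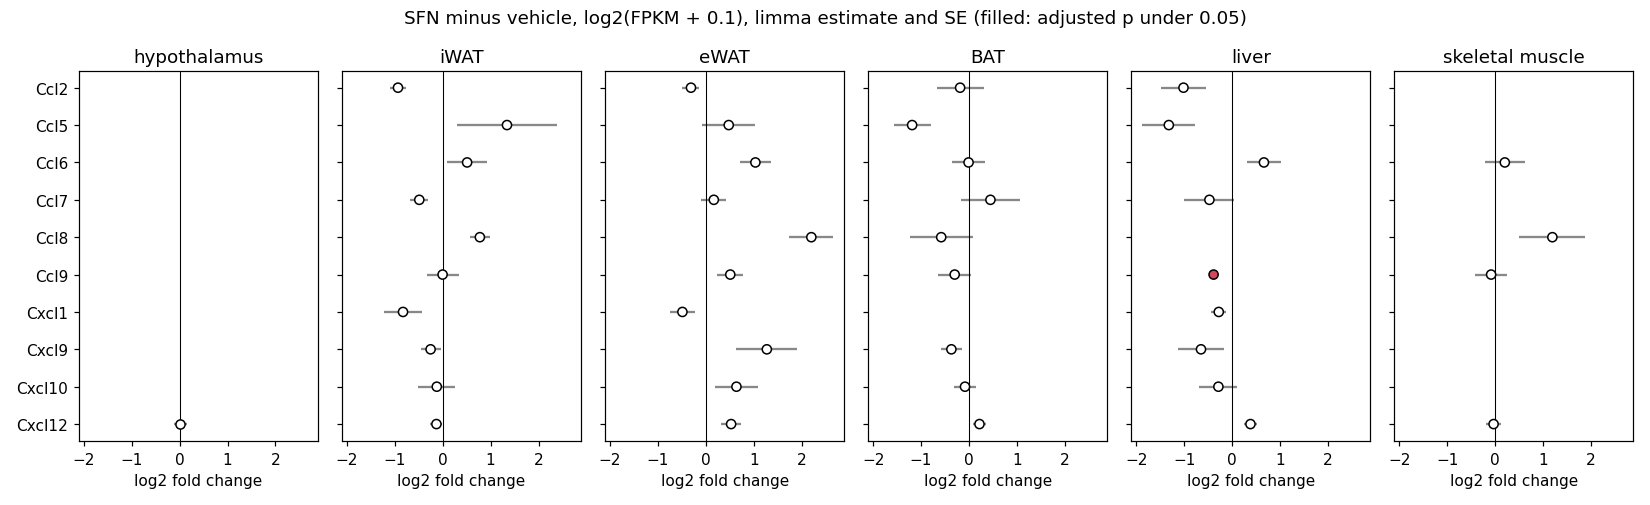
Log2 fold change (SFN minus vehicle, log2(FPKM + 0.1), limma estimate with SE) of each chemokine in the 6 tissues, filled where the adjusted p is under 0.05, with no point for a gene whose mean was under 0.5 FPKM. Ccl9 in liver is the only filled point, and Ccl8 in eWAT has the largest estimate (2.20).

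How the 10 genes varied together was described over the 60 libraries, after subtracting the mean of each tissue from log2(FPKM + 0.1), and over the 10 eWAT libraries. Treatment means were not subtracted, so differences between SFN and vehicle mice enter these correlations. They carry no p, since libraries of a mouse share the animal and all genes of a library share its depth and cell makeup. Among pairs of the 10 in eWAT, Pearson r ranged from -0.249 (Ccl2 and Ccl6) to 0.942 (Ccl6 and Ccl9). It was 0.94 for Cxcl9 and Cxcl10, 0.891 for Ccl5 and Cxcl10, 0.884 for Ccl5 and Cxcl9, and 0.859 for Ccl6 and Ccl8. Genes lying near each other on chromosome 11 did not always have a high r, with 0.718 for Ccl2 and Ccl7 but -0.092 for Ccl2 and Ccl8, and 0.444 for Ccl5 and Ccl9. In liver Ccl6 and Ccl9 had an r of -0.43. Among 12769 protein-coding genes outside the 10, the closest to Ccl6 over 60 libraries were the complement genes C1qa (r = 0.837), C1qc and C1qb (0.812 each), which macrophages express, and C1qc (0.764) was also closest to Ccl9. Ccl5 was closest to the CD8 T cell gene Cd8a (0.824), with the 4 iWAT libraries that held lymph node transcripts included. Cxcl9 was closest to the interferon-induced Gbp2 (0.766). Cxcl10 was closest to Irf1, an interferon regulatory factor (0.55), and Cxcl1 to the immediate early gene Egr1 (0.612). Looser matches were those of Ccl8 with Ifitm3 (0.567), Ccl2 with Bmp4 (0.548), Ccl7 with Tnfrsf10b (0.532) and Cxcl12 with Vtn (0.648). Within eWAT alone Cxcl9 was closest to the guanylate-binding protein genes Gbp7 (0.978), Gbp6 (0.975) and Gbp4 (0.974), and Ccl8 to Tnfrsf14 (0.985).

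Whether the response to SFN differed between eWAT and another tissue was tested as an interaction, each test sharing the eWAT libraries with the others. Against iWAT, 0 of the 10 genes passed (0.0% of 14220 genes did, and 4 of the 10 had an unadjusted p under 0.05, beside 4.86% of all genes). The estimates of these 4 were 1.43 for Ccl8 (SE 0.53, adjusted p = 0.904), 0.66 for Cxcl12 (SE 0.26, adjusted p = 0.962), 0.62 for Ccl2 (SE 0.25, adjusted p = 0.972) and 1.53 for Cxcl9 (SE 0.71, adjusted p = 0.972). The Ccl2 response in iWAT is thus not shown to differ from that in eWAT. Against BAT, 0 passed (0.0354% of 14131 genes did, and 4 had an unadjusted p under 0.05, beside 12.8%), with 2.78 for Ccl8 (SE 0.85, adjusted p = 0.178). Without mouse 5 of the vehicle group it was 3.40 and passed (adjusted p = 0.0416). Against liver, 0 passed (4.22% of 14704 genes did, and 3 had an unadjusted p under 0.05, beside 20.4%), with 0.90 for Ccl9 (SE 0.30, adjusted p = 0.0959), 1.92 for Cxcl9 (SE 0.84, adjusted p = 0.199) and 1.80 for Ccl5 (SE 0.83, adjusted p = 0.232). Ccl8, with 0 to 5 reads per liver library, entered that test through its eWAT level and is not read. With the mouse as replicate block none of the 10 passed in any of the 3 tests.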

How the data were processed

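Poly-A RNA from each tissue was sequenced by a commercial provider, and the authors deposited 1 FPKM value per gene and library, from reads placed on mm10/GRCm38 according to the submitters' notes. The aligner, the counting tool, strandedness and the handling of reads shared by related genes were not given in the sources used here. Per-tissue tables deposited by the authors list read counts and gene lengths for genes under a p-value threshold, and their log2 fold change, p-value and adjusted p-value columns were not used. Reads were recovered from the deposited FPKM with gene lengths and 1 factor per library. The values of 98.58% of the 38197 detected genes became whole reads (tolerance 0.01), and none of 146080 deposited counts differed from the recovered ones.

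SFN was compared with vehicle within each tissue (5 against 5 mice) by limma 3.58.1 (R 4.3.3, two-sided, intensity trend) on log2(FPKM + 0.1), on genes averaging 0.5 FPKM or more, with p-values adjusted by Benjamini-Hochberg across every gene kept and called under 0.05. Fold changes are on that scale and are understated for low genes. Single genes also had a two-sided exact permutation test. edgeR 4.0.16 (quasi-likelihood) and DESeq2 1.42.0 on recovered reads, other pseudocounts (1, 0.01) and filters (1 FPKM, none), TMM scaling, 1 fit to 60 libraries and leaving out each mouse were alternatives. The script was tested on simulated data. Mouse numbers in the labels tie tissues to animals, and same-mouse deviations correlated at -0.127 to 0.464 between tissue pairs.

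The 10 genes, pathway lists and markers were chosen with earlier results of these data known. All 10 genes are given in every tissue, those under the filter as a range, and of each pathway list the genes that passed or otherwise up to 4 with the smallest p, from which the text takes the nearest, except for a receptor result that is not reported here. Likeness named up to 3 genes per chemokine by Pearson correlation, among protein-coding genes averaging at least 1 FPKM.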

Additional observations from a re-analysis of the deposited data

Results flagged for a closer look

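Within each group of 5 libraries the highest and lowest value of each chemokine was compared with its neighbours by Dixon's gap test on the log2(FPKM + 0.1) scale, and 4 of 86 groups held a library far from the others, where chance flags about 1 in 20 groups. In iWAT, vehicle mouse 2 had 63.89 FPKM of Ccl5, while the other 4 vehicle mice had 2.68 to 3.58 FPKM. In eWAT, vehicle mouse 1 had 31.17 FPKM of Ccl8, below the 41.8 to 46.8 FPKM of the other 4. In skeletal muscle, SFN mouse 7 had 0.4055 FPKM of Ccl9, the lowest of its group. In liver, vehicle mouse 4 had 3.925 FPKM of Cxcl1, against 6.42 to 7.02 FPKM in the other 4 vehicle mice. The scale matters here. SFN mouse 9 in eWAT, the highest of its group for Ccl7, Ccl8, Cxcl9 and Cxcl10, was not past the critical value on the log2 scale, but on FPKM itself, a check chosen after seeing the data, 13 of 86 groups held such a library and that mouse stood apart for these 4 genes (47.91, 701.1, 39.29 and 7.524 FPKM).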

How the results depend on the processing

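How many genes passed in a tissue depended on the tool and on single mice. DESeq2 on recovered reads called 11 genes in hypothalamus, 170 in iWAT, 603 in eWAT, 574 in BAT and 197 in skeletal muscle, and among the 10 chemokines 2 in iWAT, 2 in eWAT and 3 in liver. edgeR called 0 in iWAT, 57 in BAT and 3 in skeletal muscle. A single fit to all 60 libraries called 17 in hypothalamus, 163 in iWAT, 447 in eWAT, 108 in BAT, 2692 in liver and 359 in skeletal muscle, with 1 chemokine in eWAT and 0 in liver. Without the filter on low values 4 genes passed in iWAT, 4 in eWAT, 2 in BAT and 1116 in liver, where 0 chemokines remained called. In iWAT the count was 0 with a pseudocount of 1, 0 with 0.01, 0 with a filter at 1 FPKM and 4 without the libraries holding lymph node transcripts, an alternative chosen after seeing the data. With a pseudocount of 1 the interaction of eWAT and liver called 1 chemokine, Ccl8, which entered that test through its eWAT level and is not read, since it had 0 to 5 reads per liver library, and that of eWAT and BAT called 31 genes. With the mouse as replicate block, eWAT minus liver called 341 genes and eWAT minus BAT 27. Scaled to recovered reads, 2 chemokines were highest in iWAT. The causes were not tested.

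Leaving out each mouse in turn, the counts ranged from 0 to 1 genes in hypothalamus, 0 to 5 in iWAT, 0 to 39 in eWAT, 0 to 7 in BAT, 917 to 2064 in liver, 0 to 4 in skeletal muscle, 195 to 709 for eWAT minus liver and 0 to 122 for eWAT minus BAT. Among the 10 chemokines they ranged from 0 to 1 in eWAT, 0 to 2 in liver, 0 to 1 for eWAT minus BAT and 5 to 9 for eWAT against iWAT.

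Of the differences that changed sign, Ccl5 for eWAT against iWAT was the 1 that then passed, without mouse 2 (0.6691, adjusted p = 0.00362) and without its lymph node library (0.704, adjusted p = 0.00112). Cxcl12 in hypothalamus was -0.01395 by edgeR and -0.01325 by DESeq2. Ccl9 in iWAT was 0.01498 after TMM scaling, 0.1007 by edgeR, 0.1001 by DESeq2 and 0.2682 without the lymph node libraries. Cxcl10 in iWAT was 0.08097 by edgeR and 0.07353 by DESeq2, and Ccl2 in BAT was 0.04309 and 0.04102. Without the lymph node libraries Ccl5 was 0.2349 for the interaction of eWAT and iWAT. Leaving out single mice gave ranges across 0 for Ccl2 in BAT (-0.5852 to 0.08497), Ccl5 in eWAT (-0.01566 to 0.8299), Ccl5 for eWAT against iWAT (-0.4191 to 0.6691), Ccl6 in BAT (-0.3088 to 0.2567) and in skeletal muscle (-0.06406 to 0.424), Ccl7 in eWAT (-0.03805 to 0.3493), Ccl9 in iWAT (-0.1831 to 0.2623) and in skeletal muscle (-0.314 to 0.1364), Cxcl10 in BAT (-0.1946 to 0.03874) and in iWAT (-0.338 to 0.2336), and Cxcl12 in hypothalamus (-0.0628 to 0.09582) and in skeletal muscle (-0.1645 to 0.04814). For the interactions they were Ccl2 (-0.5271 to 0.3092) and Ccl7 (-0.7756 to 0.2105) for eWAT minus BAT, and Ccl6 (-0.06794 to 0.6159) and Cxcl12 (-0.09508 to 0.3027) for eWAT minus liver. The replicate block changed the call of no other chemokine than Ccl7 and Cxcl1 for eWAT against iWAT. Genes under about 10 reads per library, among them Ccl8 in liver and skeletal muscle and Ccl7 in liver, are limited by depth, and a difference not detected there is not shown to be absent.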
